A study of Mus musculus and Bos taurus with 26 samples.

Results

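Mouse embryos that had received wild-type (WT) Hdac1 mRNA as zygotes were followed across the 2-cell stage. Of 26 libraries in the study, 22 of them from mouse, 4 were chosen by their labels: 2 of early 2-cell embryos taken 24 h after fertilization and 2 of late 2-cell embryos taken at 36 h. Each library held polyA RNA of embryos, and the unit is FPKM, in which fragments are scaled to transcript length and to library size. For comparison, the text uses late 2-cell embryos injected with water as zygotes (2 libraries, 36 h), late 2-cell embryos cultured in KSOM medium with the solvent DMSO (2 libraries, 36 h), and embryos injected with mutant Hdac1 mRNA (2 libraries at 24 h and 2 at 36 h). The labels do not name the mutation, the mouse strain or the number of embryos in a library. Both WT groups carry the injected mRNA, and no early group without Hdac1 mRNA was analysed here, so the course is that of embryos with added Hdac1.

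A mouse embryo begins life on mRNA and protein stored in the oocyte. Zygotic genome activation opens with a minor wave of transcription in the late zygote and early 2-cell embryo, in which retroviral elements and multicopy genes such as those of the Dux, Zscan4 and Usp17l families are switched on for a short time. A major wave follows in the later 2-cell embryo and brings genes for ribosomes, transcription and metabolism, while stored mRNA loses its poly(A) tail and is destroyed. HDAC1 is a histone deacetylase that works in the Sin3, NuRD and CoREST corepressor complexes.

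Hdac1, the injected gene (GRCm38 chromosome 4, 129516104 to 129542713, minus strand, protein coding), stood at 7253 and 4519 FPKM in the early libraries and at 2707 and 2960 in the late libraries. All 4 values lay far above the 92.2 and 89.3 of the water group and the 90.6 and 92.1 of the DMSO group. Injected and embryonic Hdac1 transcripts cannot be told apart in these values. The log2 fold change from early to late, on the log2(FPKM + 1) scale used throughout, was −1.02 with a standard error of 0.18 (adjusted p = 9.20e-05). Hdac1-ps, a processed pseudogene that can share reads with the injected mRNA, was at 638 and 397 FPKM early and 442 and 581 late, against 22.2 and 26.6 in water embryos.

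Between 10724 and 11628 genes reached 1 FPKM in the 4 libraries. Across genes, the replicates correlated with r = 0.986 at the early stage and 0.949 at the late stage. Depth is unknown from FPKM; the most frequent ratio between low values put the second early library at 1.03, the first late library at 0.712 and the second late library at 0.912 of the depth of the first early library, from 3.06% to 11.6% of low genes, so these are rough. Nothing in the labels says whether replicates are separate cultures, so p-values measure only the spread between replicate libraries. That spread was estimated from all mouse groups fitted together, not from the WT libraries alone. Some markers of other cell types were detected. Of 16 cumulus and granulosa markers 5 passed the filter, of which 4 fell and 1 rose. Lhcgr was listed at 0 in all 4 libraries. Below the filter, Tnfaip6 was at 0.928 and 1.53 early and 0.128 and 0.626 late. Cyp11a1 was at 0.814 and 2.13 early and 0 in both late libraries. The summed FPKM of these 16 markers was 12.9 and 17.8 early and 41.3 and 50.5 late, nearly all of the late sum coming from Amhr2, the anti-Mullerian hormone receptor, at 40.8 and 48.7. Of 11 blood markers 5 passed the filter, 2 higher and 2 lower, and of 11 sperm markers 3 passed, 1 higher and 2 lower. The summed FPKM was 111 and 129 early and 50.8 and 36.7 late for the blood markers, and 137 and 144 early and 49.2 and 33.2 late for the sperm markers. The globins Hbb-bs and Hbb-bt and the sperm packaging genes Prm1 and Tnp1 were listed at 0 in all 4 libraries. Other members were detected: the globin Hba-a1 was at 0.889 and 0.388 early and 3.95 and 1.03 late, and the sperm packaging gene Prm2 at 2.12 and 2.92 early and 0.546 and 0.339 late. The part of these markers in the results was not tested.

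Most of the transcriptome changed within these 12 h. Of 12360 genes tested, out of 27988 in the deposited values, 4794 were higher at the late stage (38.8%) and 4745 lower (38.4%) at an adjusted p under 0.05 in limma, together 77.2% of the genes tested. Changes of at least 2-fold were called for 3937 higher genes (31.9%) and 3422 lower genes (27.7%). The larger the change, the more the higher genes outnumbered the lower ones: 2030 against 1128 at 4-fold, 821 against 286 at 8-fold and 251 against 41 at 16-fold. A gene silent at 1 stage enters the test only by being expressed at the other and so had to differ. Groups did not overlap for 10776 genes (87.2%). With such a background, a list is read below by the split between higher and lower members and by its median, which was −0.02 over all genes tested, and not by how many members were called.

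**Figure D1:**
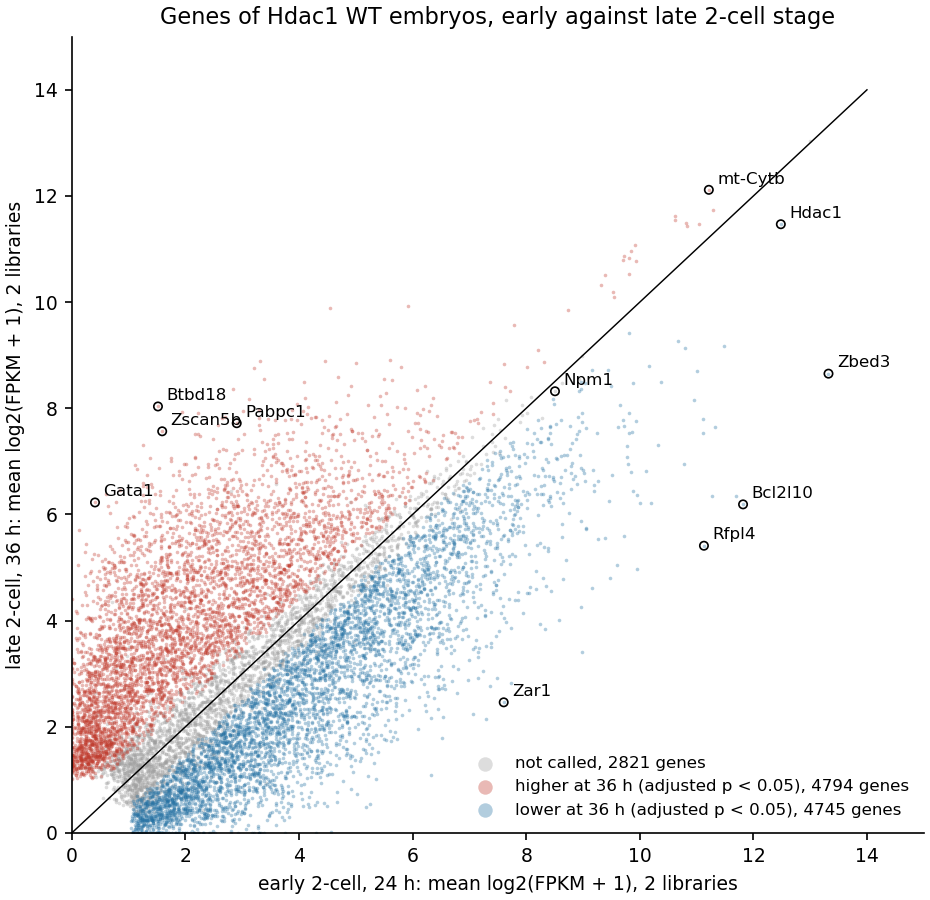
Mean log2(FPKM + 1) of 12360 genes in the 2 early (x axis, 24 h) and 2 late (y axis, 36 h) Hdac1 WT libraries, 1 point per gene, with the line of equality. Genes called higher (4794) lie above the line and genes called lower (4745) below it; Btbd18, Zscan5b and Gata1 stand far above, Zbed3, Bcl2l10, Rfpl4 and Zar1 far below, and Npm1 on the line.

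The exchange was also large as a share of the RNA. The genes called higher held 15.3% and 15.4% of the summed FPKM in the early libraries and 59.4% and 61.0% in the late libraries. The genes called lower held 71.9% and 71.7% early and 24.1% and 24.5% late. These shares describe the same values that made the calls. Below 1 FPKM in both early libraries and at 10 or more in both late libraries were 169 genes, and 28 genes showed the reverse. FPKM gives shares of a library, so a smaller number of molecules per embryo and a growing remainder cannot be told apart. The libraries held polyA RNA, so in a fall a lost poly(A) tail and a destroyed mRNA cannot be told apart. In a rise, new transcription and a change in the tail of stored mRNA cannot be told apart either.

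**Figure D2:**
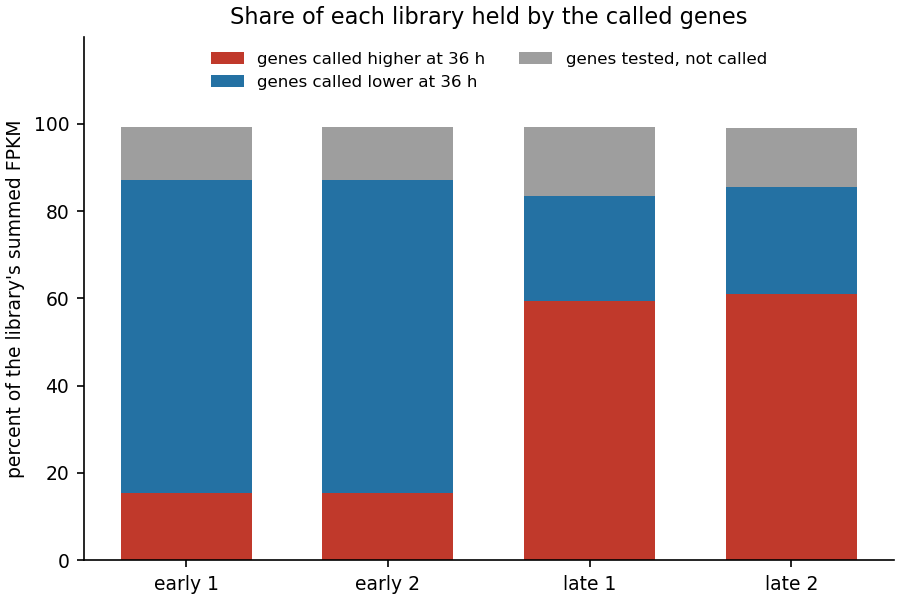
Stacked bars of the percent of each library's summed FPKM held by genes called higher, genes called lower and genes tested but not called, 1 bar per Hdac1 WT library. The called-higher genes held about 15.3% and 15.4% early and 59.4% and 61.0% late.

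The genes that rose most belonged to no single pathway. Btbd18, a BTB-domain regulator known from the piRNA pathway of the testis (chromosome 2, 84659079 to 84668780, plus strand), stood at 1.15 and 2.80 FPKM early and 284 and 240 late, a log2 fold change of 6.52 ± 0.30 (SE; adjusted p = 3.24e-11). Selenos, a selenoprotein of the endoplasmic reticulum, went from 1.14 and 1.65 to 152 and 163 (6.06 ± 0.16). Zscan5b, a zinc-finger protein with a SCAN domain, went from 2.27 and 1.77 to 191 and 186 (5.97 ± 0.13). In each of these genes the lower late library lay at least 10 times above the higher early library. Gata1, the erythroid transcription factor on the X chromosome, was at 0.326 and 0.325 early and 68.5 and 79.5 late. Spic, an ETS-family factor best known from macrophages, was at 1.31 and 1.12 early and 117 and 114 late. Water embryos at 36 h held 81.0 and 62.0 FPKM of Gata1 and 70.7 and 94.6 of Spic. Exoc3l2, Rab20, Pdxk (pyridoxal kinase), Pheta1, the potassium channel Kcnk6 and the alkaline phosphatase Alppl2 also rose by 5.57 to 5.99 on the log2 scale. Alppl2 was the most abundant of these, with 7.97 and 10.1 FPKM early and 500 and 449 late.

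Factors that activate the embryonic genome changed in both directions. Of 30 such genes tested, 17 rose and 10 fell, with a median of 1.51. The Obox family of homeobox genes split by member. Obox5 fell from 1027 and 955 to 28.3 and 32.5 FPKM (−4.98 ± 0.20, adjusted p = 8.53e-12). Obox1 fell from 740 and 676 to 28.5 and 25.6. Obox2 and Obox7 fell as well, by −3.56 and −4.14. Obox8 rose from 0.625 and 0.400 to 72.4 and 94.7 (5.80 ± 0.17). Obox6 rose from 2.87 and 3.15 to 133 and 114, and Obox3 from 5.62 and 7.18 to 57.0 and 55.6. Early and late libraries did not overlap for any of these 7 genes, and reads of such similar genes may be split between copies.

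Several single-copy regulators rose, some of them from near nothing. Tead4, which directs trophectoderm fate, was at 0.0879 and 0.0447 FPKM early and 16.0 and 17.5 late. Gabpa, the DNA-binding subunit of the ETS-family GA-binding protein, rose from 1.15 and 2.17 to 90.2 and 97.7 (5.19 ± 0.19, adjusted p = 3.90e-12). Dppa4 rose from 2.38 and 2.30 to 124 and 132, while its partner Dppa2, which was already present at 15.5 and 12.2, rose to 123 and 115. The 2 partners thus reached like levels from different starts. Nr5a2, an orphan nuclear receptor active in the 2-cell embryo, rose from 13.5 and 11 to 75.6 and 68.2, and Klf5 from 3.55 and 2.96 to 35.4 and 28.3. Tfap2c rose by 1.48 ± 0.17. Klf17, an oocyte and 2-cell factor, was at 157 and 154 early and 151 and 130 late and was not called (−0.15, 95% interval from −0.44 to 0.14).

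The 2-cell burst genes did not move together. Of 38 tested, 17 rose, 14 fell and 7 were not called; the median was 0.12, and it changed sign under median-ratio scaling (−0.01) and quantile normalization (−0.06). Some members were lower at 36 h. Duxf3, a copy of the homeobox gene Dux, fell from 4.45 and 5.13 FPKM to 0.419 and 0.280 (−2.10 ± 0.26, adjusted p = 2.18e-06). Zscan4f, of the family that marks 2-cell-like cells, fell from 106 and 105 to 55.9 and 32.6, and Zscan4c from 37.9 and 35.2 to 12.8 and 13.5. The other Zscan4 copies named, Zscan4b, Zscan4d and Zscan4e, changed by −2.18, −1.0 and −1.96. Usp17la, a deubiquitinase copy, fell from 15.1 and 14.5 to 2.14 and 2.11, and Zfp750 from 37.3 and 33.8 to 2.71 and 3.15. Other burst genes rose. Pramel7 rose from 2.32 and 2.39 to 152 and 115 (5.31 ± 0.39, adjusted p = 6.01e-09), and Trim43a from 1.12 and 1.95 to 81.7 and 99.5. Trim43b and Trim43c rose by 4.93 and 5.11. Zfp352, a zinc-finger gene of the 2-cell stage, stood at 28.8 and 29.6 early and 34.1 and 32.8 late and was not called (adjusted p = 0.468). These families consist of near-identical copies, so the value of a single copy is uncertain.

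**Figure D3:**
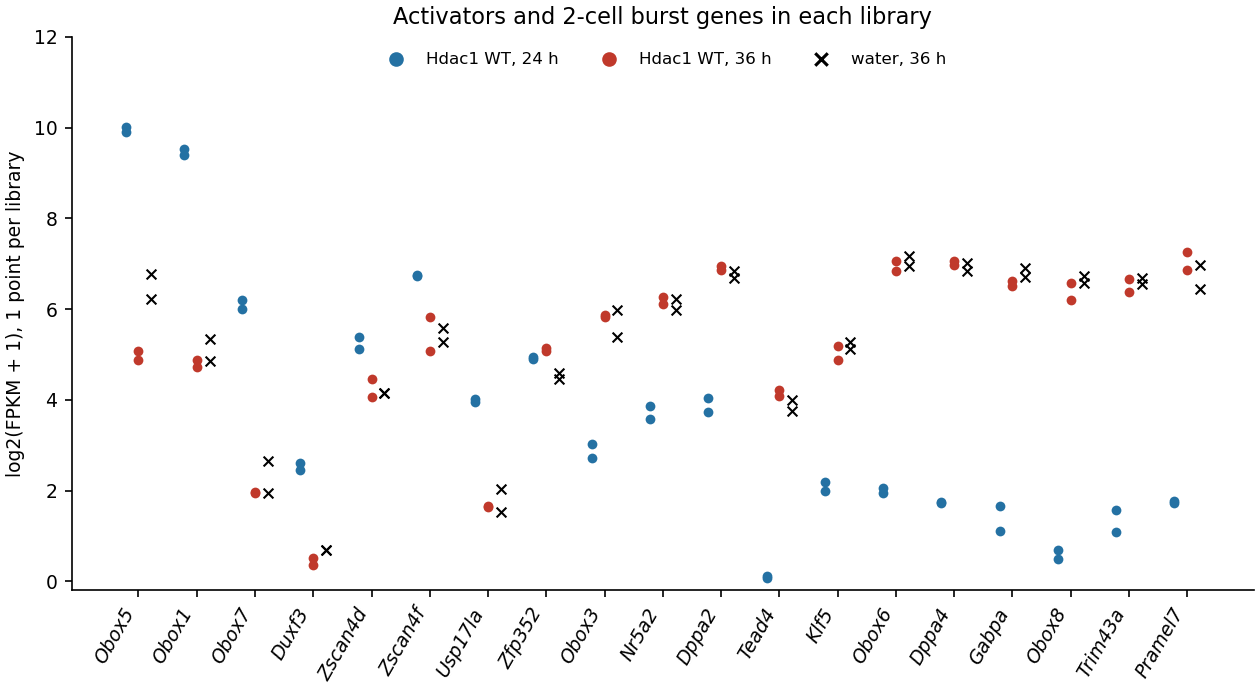
log2(FPKM + 1) of 19 activators and 2-cell burst genes, 1 point per library, in Hdac1 WT embryos at 24 h and 36 h and, as crosses, in water embryos at 36 h. Obox5, Obox1, Obox7 and Duxf3 are high early and low late, Obox6, Obox8, Gabpa, Dppa4, Trim43a and Pramel7 the reverse, and Zfp352 differs little.

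Genes of the ribosome rose almost without exception. Of 78 cytosolic ribosomal proteins tested, 74 rose, 1 fell and 3 were not called, with a median log2 fold change of 2.78. Their summed FPKM was 1972 and 1936 early and 11156 and 11230 late. Rps25 rose from 5.12 and 7.80 FPKM to 151 and 130 (4.26 ± 0.22, adjusted p = 1.03e-10). Rpl41, the smallest ribosomal protein, rose from 53.2 and 65.7 to 806 and 1169. The member that fell was Rps15a, at 128 and 152 early and 74.0 and 59.3 late; it was not called under quantile normalization (−0.80) or without the second early (−0.94) or the second late library (−0.90). Ribosomal protein genes have many processed pseudogenes, and their reads can be split among them.

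Ribosome biogenesis factors, which build the subunits in the nucleolus, showed the same pattern. Of 76 tested, 73 rose and 1 fell, with a median of 3.05. Mybbp1a, a nucleolar partner of Myb, rose from 1.27 and 1.75 FPKM to 115 and 97.6 (5.42 ± 0.20, adjusted p = 4.18e-12). The rRNA methyltransferase Nop2 rose from 3.14 and 2.71 to 131 and 114, and the box C/D methyltransferase Fbl from 9.66 and 11.8 to 148 and 156. Nucleolin, Ncl, rose by 1.69 ± 0.30 from 25.6 and 35.1. Riok1, a kinase of small-subunit maturation, fell from 85.5 and 81.1 to 18.1 and 17.2. Npm1, nucleophosmin, was high at both stages, at 389 and 338 early and 290 and 350 late, and was not called.

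RNA polymerase and general transcription factor genes mostly rose. Of 58 tested, 40 rose and 10 fell, with a median of 1.47. Polr1e, Polr1b and Polr1a, subunits of RNA polymerase I, which transcribes rRNA, rose from 1.46 and 1.36, 0.953 and 1.31, and 0.897 and 1.22 FPKM to 82.9 and 58.0, 42.6 and 43.0, and 18.5 and 17.9. Polr1c, shared by polymerases I and III, rose from 5.74 and 1.56 to 73.3 and 105 (4.42 ± 0.36, adjusted p = 2.10e-08). Ubtf, the upstream binding factor of rRNA genes, rose from 4.79 and 5.01 to 125 and 119. RNA polymerase II, which transcribes mRNA, had members in both directions: its catalytic subunit Polr2a rose from 16.7 and 13.7 to 30.3 and 20.2, while Polr2c and Polr2g fell from 357 and 325 to 83.5 and 77.7, and from 48.3 and 42.8 to 7.36 and 7.55. Polr2f, shared by all nuclear polymerases, was at 277 and 266 early and 305 and 290 late and was not called.

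Promoter sequences of 4 genes are shown, 2 from the ribosome-making block that rose and 2 oocyte genes that fell. They are examples picked without a stated rule and do not stand for their lists. Each is the 250 bases before the RefSeq start site on GRCm38.p6, 5′ to 3′ in the direction of the gene. Capitals mark matches on either strand to any of 10 motifs that were searched. They were CCGGAAGT, bound by ETS factors such as GABPA, the GC box GGGCGG of SP and KLF factors, CCAAT of NF-Y, the TATA box TATAAA, the E-box CACGTG, the E2F site TTTCCCGC, and sites of NRF1, YY1, DUX and NR5A2 given by name. Coordinates in the same order are chr17:46248046-46248295, minus strand; chr9:44407464-44407713, plus strand; chr5:72581085-72581334, minus strand; chr7:5116912-5117161, minus strand.
Polr1c: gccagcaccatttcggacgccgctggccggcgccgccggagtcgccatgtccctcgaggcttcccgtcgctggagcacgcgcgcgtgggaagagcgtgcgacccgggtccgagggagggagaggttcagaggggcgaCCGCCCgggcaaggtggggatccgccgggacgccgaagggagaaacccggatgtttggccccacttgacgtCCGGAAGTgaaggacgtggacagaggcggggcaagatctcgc
Rps25: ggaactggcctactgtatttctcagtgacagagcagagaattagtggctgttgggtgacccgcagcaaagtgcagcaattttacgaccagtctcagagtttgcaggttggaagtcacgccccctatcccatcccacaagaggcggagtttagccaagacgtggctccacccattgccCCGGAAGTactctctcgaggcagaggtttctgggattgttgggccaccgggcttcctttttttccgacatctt
Zar1: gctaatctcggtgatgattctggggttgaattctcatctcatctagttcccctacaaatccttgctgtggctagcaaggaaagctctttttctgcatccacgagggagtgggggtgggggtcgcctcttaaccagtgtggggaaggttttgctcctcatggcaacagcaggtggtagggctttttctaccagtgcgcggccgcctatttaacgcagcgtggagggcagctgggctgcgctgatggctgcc
Rfpl4: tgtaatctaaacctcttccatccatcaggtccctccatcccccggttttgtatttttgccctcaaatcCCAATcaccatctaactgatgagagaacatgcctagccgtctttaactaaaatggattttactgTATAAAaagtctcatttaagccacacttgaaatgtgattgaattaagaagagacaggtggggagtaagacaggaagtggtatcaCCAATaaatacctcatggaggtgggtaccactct
The Polr1c window held 32 CG dinucleotides and 70.4% G and C, with 1 CCGGAAGT and 1 GGGCGG on the opposite strand. Rps25 held 1 CCGGAAGT, 9 CG dinucleotides and 53.6% G and C. Zar1, an oocyte RNA-binding protein, held none of the 10 motifs, with 9 CG dinucleotides. Rfpl4, an oocyte ring-finger protein, held 2 CCAAT and 1 TATAAA, with 2 CG dinucleotides and 41.2% G and C. Rpl41, which rose, also held CCGGAAGT, but Mybbp1a, Nop2, Nop56, Ncl, Polr1a, Polr1b and Polr1e rose without it in this window. Rpa3, a replication gene that fell, held 2. The cytosolic ribosomal proteins, the list of Rps25, were not searched as a whole, since 76.9% of them had a window.

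For whole lists, windows of 300 bases (250 before to 50 after the start) were searched where at least 80% of a list's tested members had one. CCGGAAGT occurred in 3.89% of all 32851 RefSeq windows, which include noncoding genes. It occurred in 32.9% of 70 windows of ribosome biogenesis factors, 29% of 31 windows of proteasome subunits, 25% of 56 windows of polymerase and general transcription factor genes and 18.5% of 54 windows of splicing factors. None of 22 windows of the subcortical maternal complex and NLRP genes held it, and none of 23 windows of oocyte ubiquitin and F-box genes. It was also in none of 34 windows of glycolysis genes, 29 of adhesion genes and 24 of p53 targets, and in 6.25% of 32 windows of nucleotide synthesis genes, a list of which most members rose. CCAAT was in 68.2% of the first of these maternal sets, in 30.4% of the second and in 37.4% of all windows. GGGCGG was in 61.4% of the ribosome biogenesis windows, 8.7% of the F-box windows and 35.7% of all. Its share was 78.4% in 37 windows of histone deacetylase and corepressor genes and 75.9% in 29 of adhesion genes, lists of which most members fell. CCGGAAGT was in 10.8% of those corepressor windows and in 17.9% of 39 windows of replication genes. Of the other motifs, TTTCCCGC was in 17.9% of 39 windows of replication genes and 1.07% of all, and the NRF1 and YY1 sites were in 7.69% and 9.62% of 52 windows of respiratory chain genes and in 0.971% and 0.852% of all. The NR5A2 site was in 1.62% and the DUX site in 0.207% of all windows, and no window of a list searched held the DUX site. The 2-cell burst genes and the activators of the embryonic genome were not searched, since 65.8% and 73.3% of them had a window. Whether their promoters hold the DUX site was therefore not examined. The E-box was in 18.6% of the ribosome biogenesis windows and 7.15% of all, and the TATA box in 2.86% and 13.6%. These shares describe letter strings, not binding, and the search by list was added after shares over all risers and fallers had been seen. The planned shares over all risers and fallers are not given here. Only 9104 of the 12360 genes tested (73.7%) had a window, under the 80% asked of a list.

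Translation factors rose, with exceptions inside single complexes. Of 43 tested, 33 rose and 7 fell, with a median of 1.73. In the initiation factor eIF3, Eif3c rose from 2.23 and 3.25 FPKM to 104 and 120 and Eif3a from 4.98 and 5.05 to 105 and 128, whereas Eif3i fell from 108 and 97.7 to 45.5 and 30.5. Eif1a, which encodes the initiation factor eIF1A, rose by 3.16 ± 0.14, whereas Eif1ax, which also encodes eIF1A, changed by −1.21. Eif1b, a paralogue of Eif1, changed by −2.90 ± 0.20. Of 21 aminoacyl-tRNA synthetase genes, 11 rose and 6 fell: Rars, for arginine, rose from 1.23 and 1.75 to 59.7 and 56.5, and Farsb, for phenylalanine, fell from 86.1 and 88.0 to 15.5 and 13.5. Vars of this list did not pass the filter.

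Other large machines were mixed. Of 36 proteasome subunits and assembly factors, 22 rose and 10 fell (median 0.86). The catalytic subunit Psmb5 rose from 1.71 and 2.12 FPKM to 56.1 and 52.2 (4.24 ± 0.28, adjusted p = 2.07e-09), and the catalytic subunit Psmb6 fell from 117 and 109 to 12.6 and 16.7 (−2.87 ± 0.25, adjusted p = 4.56e-08). These belong to the same ring and moved in opposite directions. Of 54 splicing factors, 28 rose and 16 fell (median 0.57); the Sm protein Snrpd2 rose from 4.83 and 6.58 to 88.3 and 97.3 while the Sm protein Snrpd3 fell from 119 and 122 to 14.3 and 17.5. Of 27 chaperonin and folding genes, 16 rose and 7 fell (median 0.93). Tcp1, a subunit of the cytosolic chaperonin, rose from 10.4 and 9.36 to 118 and 108, and the mitochondrial co-chaperonin Hspe1 fell from 94.4 and 77.9 to 5.33 and 8.26. Hsp90ab1 stood at 251 and 234 early and 209 and 262 late and was not called.

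Most genes of nucleotide synthesis rose. Of 30 nucleotide and one-carbon genes tested, 20 rose and 8 fell, with a median of 1.77. Prps1, which makes phosphoribosyl pyrophosphate, rose from 5.60 and 12.0 FPKM to 487 and 386 (5.55 ± 0.27, adjusted p = 5.68e-11). Ppat, the first committed enzyme of purine synthesis, rose from 2.80 and 2.36 to 84.1 and 90.5, and Impdh1, on the way to GTP, from 1.59 and 1.29 to 82.2 and 68.9. Odc1, the ornithine decarboxylase of polyamine synthesis, rose from 46.7 and 51.2 to 401 and 339. The mitochondrial folate enzymes went the other way, Mthfd2 from 184 and 191 to 32.1 and 32.7 and Shmt2 from 38.8 and 30.9 to 8.59 and 9.16. Rrm2, a ribonucleotide reductase subunit, was not called (adjusted p = 0.0599).

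Energy metabolism was divided. Of 13 mitochondrially encoded mRNAs, 12 rose and none fell, with a median of 0.90, a smaller change than that of the ribosomal genes. With median-ratio scaling 9 rose (median 0.76), and with quantile normalization 13 rose (median 1.37). mt-Cytb rose from 2463 and 2294 FPKM to 4235 and 4649. The member not called without added scaling was mt-Atp8, whose late libraries stood at 13931 and 5095, on both sides of the early 8037 and 8402. Of 59 nuclear respiratory chain and ATP synthase genes, 25 rose and 16 fell (median 0.32), or 20 and 18 with quantile normalization (median 0.07), and of 66 mitochondrial ribosomal proteins, 31 rose and 16 fell (median 0.53). Atp5g1 rose from 12.1 and 9.24 to 154 and 166, and Sdha, of succinate dehydrogenase, fell from 75.9 and 90.3 to 8.04 and 5.52. Of 24 glycolysis and pyruvate genes, 9 rose and 6 fell (median −0.06), but 9 and 10 with quantile normalization (median −0.33) and 9 and 8 with median-ratio scaling. Ldhb, the lactate dehydrogenase of the oocyte, fell from 666 and 678 to 48.4 and 43.2, while Mpc2, of the mitochondrial pyruvate carrier, rose from 4.02 and 3.41 to 61.7 and 48.4. The glucose transporter Slc2a3 rose from 0.378 and 0.396 to 5.61 and 8.22, and Slc2a1 fell from 18.9 and 16.3 to 2.50 and 1.45.

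Cell cycle genes changed in both directions. Of 40 cyclins, inhibitors and mitotic kinases tested, 15 rose and 17 fell (median −0.30). Cdk1, the mitotic kinase, rose from 15.0 and 17.3 FPKM to 318 and 267 (4.09 ± 0.20, adjusted p = 8.07e-11). Ccne1 rose from 14.4 and 12.9 to 264 and 238, and the phosphatase Cdc25c, which activates CDK1, from 0.842 and 1.70 to 37.4 and 44.9. Ccnb1, the cyclin partner of CDK1, fell from 482 and 391 to 201 and 204. Of the kinases that restrain CDK1, oocyte Wee2 fell from 394 and 398 to 61.8 and 49.6 and Wee1 rose from 1.40 and 1.26 to 9.66 and 8.70, so that Wee2 was still the higher of the pair at 36 h. The checkpoint kinase Chek1 fell from 176 and 169 to 21.6 and 29.8, and Chek2 rose from 0.715 and 0.723 to 22.6 and 17.3. Pttg1, securin, fell from 1005 and 881 to 81.5 and 91.3. Ccna2 rose by 0.73 ± 0.11, and the oocyte and testis cyclin Ccna1 was listed at 0 in all 4 libraries. Of 38 replication genes, 15 rose and 10 fell (median 0.29). The single-strand binding complex RPA split, Rpa2 rising from 4.83 and 5.94 to 47.6 and 48.4 and Rpa1 falling from 39.3 and 37.3 to 5.72 and 3.86.

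Chromatin genes leaned downward. Of 34 histone deacetylase and corepressor genes tested, 9 rose and 21 fell, with a median of −0.92. Mta2, a scaffold of the NuRD complex, rose from 4.32 and 6.31 FPKM to 225 and 221 (5.17 ± 0.17, adjusted p = 1.61e-12). Its partners fell: Chd4, the NuRD remodeller, went from 110 and 117 to 17.9 and 25.5, and the histone chaperone Rbbp7 from 646 and 586 to 94.1 and 103. Sin3b fell from 54.3 and 53.2 to 8.94 and 4.61, and Sap30, of the Sin3 complex, from 604 and 448 to 135 and 87.4. Endogenous Hdac2 fell from 35.4 and 33.9 to 19.3 and 16.3. Sirt1, an NAD-dependent deacetylase, rose from 21.3 and 18.6 to 117 and 113.

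Enzymes of H3K4 methylation changed in both directions. Of 18 tested, 5 rose and 9 fell (median −0.54). Kdm5b and Kdm5a, which remove H3K4 trimethylation, rose from 4.70 and 4.75 FPKM to 116 and 126, and from 0.788 and 2.44 to 48.9 and 51.0. Kdm1b, the H3K4 demethylase of the growing oocyte, fell from 89.9 and 100 to 11.6 and 8.83, and the methyltransferase Kmt2d from 98.2 and 99.7 to 17.2 and 15.4. Of 16 genes of DNA methylation and imprint protection, 4 rose and 10 fell (median −1.06). Tet3, the oxidase of the zygote, fell from 213 and 250 to 19.4 and 20.4, while Tet1 rose from 0.671 and 0.965 to 14.3 and 16.3. Uhrf1 fell from 123 and 128 to 14.8 and 9.83 and Dnmt3l from 49.6 and 54.5 to 4.48 and 5.12. Dnmt1 was at 18.2 and 16.2 early and 18.2 and 17.4 late and was not called. Dppa3 was called lower at −0.39 ± 0.13, but it was at 0.71 under quantile normalization and was not called without the second early or the second late library (both −0.31). Of 13 histone variants and linker histones tested, 4 rose and 7 fell (median −1.07), or 5 and 6 with quantile normalization (median −0.19). The oocyte linker histone H1f8 fell from 484 and 674 to 27.8 and 19.6, and H2az1 rose from 50.0 and 54.3 to 319 and 208.

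Lineage and adhesion genes moved in both directions. Of 21 pluripotency and lineage factors tested, 10 rose and 4 fell (median 0.16), and 9 did not pass the filter, among them Nanog and Cdx2 at under 1 FPKM in every library. Fgf4, the ligand of inner cell mass signalling, rose from 0.0704 and 0.0227 FPKM to 18.8 and 15.7. Pou5f1 fell from 332 and 280 to 82.4 and 82.0 (−1.88 ± 0.22, adjusted p = 1.37e-06), and Sox2, at 5.63 and 6.27 early and 2.55 and 5.75 late, was not called. Of 26 adhesion and polarity genes, 7 rose and 15 fell (median −0.54). Epcam rose from 0.833 and 1.15 to 39.4 and 39.9 and the tight junction claudin Cldn6 from 0.563 and 0.542 to 29.1 and 23.4. The polarity gene Pard3 fell from 208 and 235 to 73.5 and 79.2, and of the atypical protein kinases C, Prkci changed by −1.86 ± 0.31 and Prkcz by 2.75 ± 0.26.

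Lists of oocyte transcripts fell almost as a whole in these polyA libraries. All 20 genes tested of the subcortical maternal complex and the oocyte NLRP family fell, with a median of −2.35. Zbed3, a member of that complex, held 10904 and 9623 FPKM early, the highest level of any gene at that stage, and 468 and 344 late (−4.67 ± 0.18, adjusted p = 7.93e-12). Ooep fell from 52.1 and 43.4 to 4.61 and 1.58, whereas Nlrp5, also called Mater, fell less, from 67.9 and 65.2 to 14.2 and 13.7. Padi6 fell by −1.31, Tle6 by −1.44 and Khdc3 by −1.07. Of 23 oocyte ubiquitin and F-box genes, 22 fell and 1 rose (median −2.29). Rfpl4 had the most negative change of the genes named by size, from 2280 and 2199 to 44.4 and 38.8 (−5.72 ± 0.27, adjusted p = 4.18e-11), while its relative Rfpl4b rose from 4.26 and 5.51 to 28.8 and 30.2. All 6 oligoadenylate synthetase-like genes tested fell (median −3.09), Oas1d from 346 and 286 to 26.7 and 27.3. Of 11 oocyte transcription regulators, 9 fell and 1 rose (median −2.78). Nobox, an oocyte homeobox gene, fell from 38.5 and 32.3 to 3.67 and 2.20, and Taf4b, a TFIID subunit of the gonad, rose from 11.5 and 11.9 to 38.4 and 34.1.

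Genes that store and dismantle maternal mRNA fell more often than they rose. Of 41 tested, 24 fell and 11 rose, with a median of −0.99. Zar1, which holds mRNA in the oocyte, fell from 208 and 180 FPKM to 4.77 and 4.24 (−5.14 ± 0.24, adjusted p = 4.03e-11). Btg4, the adaptor that brings the CCR4-NOT deadenylase to maternal mRNA, fell from 2160 and 2255 to 226 and 219. The oocyte cap-binding protein Eif4e1b fell from 1233 and 1120 to 78.0 and 68.5. Pabpc1l, the poly(A)-binding protein of oocytes, fell from 108 and 68.7 to 5.20 and 3.05, and the somatic Pabpc1 rose from 6.40 and 6.55 to 183 and 240 (4.81 ± 0.14). In CCR4-NOT itself the scaffold Cnot1 rose from 9.77 and 9.78 to 53.6 and 51.3, and the nucleases Cnot7 and Cnot6l fell by −1.67 ± 0.18 and −2.15 ± 0.24. Ythdf2, an m6A reader that promotes mRNA decay, rose from 13.0 and 13.3 to 84.4 and 94.1. Zar1l, the relative of Zar1, was at 10 and 7.52 early and 7.93 and 9.13 late and was not called.

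Genes of the egg coat mostly fell, and those of meiosis and fertilization changed in both directions. Of 11 zona pellucida and oocyte-secreted genes, 10 fell and 1 rose (median −1.50). Bmp15 fell from 584 and 486 FPKM to 58.9 and 45.3 and Gdf9 from 231 and 258 to 49.4 and 58.6. The riser was the zona glycoprotein gene Zp3, at 10.1 and 11.1 early and 22.9 and 21.1 late (0.98 ± 0.19). Of 23 meiosis and metaphase II genes, 5 rose and 10 fell (median −0.44), and Mos, the kinase of metaphase arrest, was at 2.46 and 1.86 early and 2.66 and 0.756 late and was not called. Fbxo43, the arrest factor Emi2, fell from 66.6 and 61.8 to 6.78 and 9.59. Of 11 sperm binding and egg activation genes, 3 rose and 6 fell (median −0.70): the sperm receptor Izumo1r (Juno) fell from 49.2 and 39.5 to 1.99 and 2.86, and Cd9 rose from 8.91 and 6.89 to 27.4 and 31.5. Other genes among those that fell most were Rgs2 (−5.15), Mgst3 (−4.92), Sytl4 (−4.73), Eef2k (−4.72) and Epsti1 (−4.70). Sertad3 was at 41.8 and 32.4 early and 0 and 1.10 late.

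Survival and stress genes changed by member. Of 12 BCL2-family genes tested, 6 rose and 3 fell (median 0.76). Bcl2l10, the survival gene of the oocyte, fell from 3710 and 3512 FPKM to 72.2 and 71.7 (−5.63 ± 0.22, adjusted p = 7.26e-12), and Mcl1 rose from 6.41 and 4.95 to 90.7 and 69.8. Of 20 p53 targets, 10 rose and 6 fell (median 0.45): Cdkn1a, the cell cycle inhibitor p21, rose from 7.07 and 5.84 to 19 and 17 and Mdm4, a restraint on p53, fell from 340 and 405 to 122 and 140. Of 16 integrated stress response genes, 9 rose and 5 fell (median 0.70). Sesn2 rose from 7.81 and 5.62 to 176 and 164 and Atf4 from 56.9 and 50.3 to 103 and 117, whereas the cystine transporter Slc7a11 fell from 11.3 and 13.2 to 2.32 and 2.03.

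**Figure D4:**
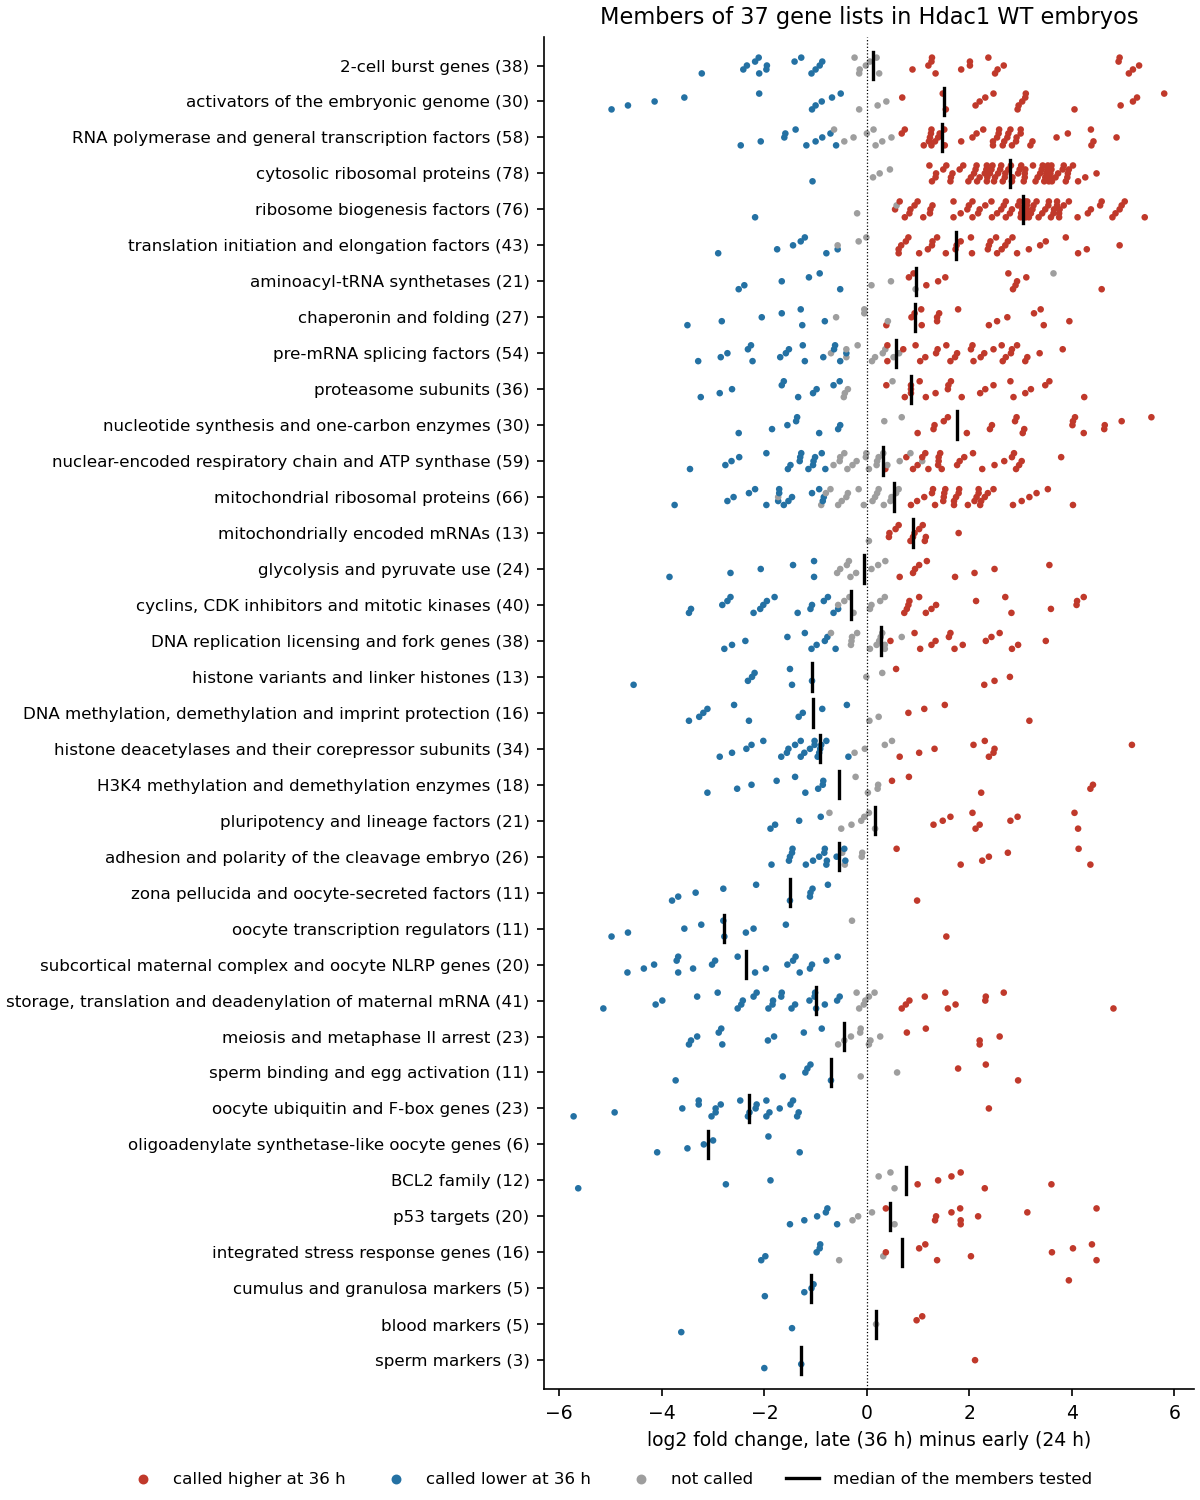
log2 fold change from 24 h to 36 h of every tested member of 37 gene lists in Hdac1 WT embryos, 1 point per gene, with the number tested in brackets and the median as a bar. Ribosomal protein and ribosome biogenesis genes lie almost wholly to the right of 0 and the NLRP, F-box and Oas1 lists to the left, while the 2-cell burst genes and cyclins lie on both sides.

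The most abundant genes were replaced as well. Early libraries were led by Zbed3, mt-Atp8, Hdac1, Bcl2l10, AU022751 (3498 and 3124 FPKM) and Omt2b (2716 and 3006), and late libraries by mt-Atp8, mt-Cytb, mt-Co1, Gm10925, mt-Atp6 and Gm28661; Gm10925 and Gm28661 lie in a nuclear copy of mitochondrial DNA on chromosome 1 and can share reads with mitochondrial genes. Some abundant genes held their level within narrow limits. The 6 most abundant uncalled genes whose 95% interval lay within 0.5 of 0 on the log2 scale were Hdac1-ps, Rnf10, Npm1, Polr2f, Anp32b and Hsp90ab1. Of these, Hdac1-ps can share reads with the injected mRNA, differed between the early replicates and lay far lower in water embryos. Rnf10 was at 384 and 406 early and 314 and 398 late, and Anp32b at 243 and 271 early and 228 and 254 late. Such stability is relative to the scaling: under quantile normalization Anp32b, Hsp90ab1, Npm1 and Rnf10 stood at 0.52, 0.52, 0.66 and 0.76, in a setting that moved the median of all genes from −0.02 to −0.21.

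The same interval was compared in embryos with mutant Hdac1, to ask whether the change from early to late differed. The difference of the 2 stage changes, mutant minus WT, was called for 4605 genes (37.3%), 1976 in the positive (16%) and 2629 in the negative direction (21.3%). The genes were filtered on WT libraries, so genes expressed only in mutant embryos were left out, and the balance turned with the filter: 3683 positive and 2634 negative with the filter over all mouse libraries, and 3733 and 2560 with no filter. For ribosome biogenesis factors 70 of 76 differences were negative and none positive, with a median stage change of 3.05 in WT and 1.09 in mutant embryos. For cytosolic ribosomal proteins 40 of 78 were negative and none positive, with medians of 2.78 and 1.89. For 2-cell burst genes 21 of 38 were positive and 7 negative. Zscan4f, which fell in WT embryos, was at 39.0 and 60.6 FPKM in early and 240 and 183 in late mutant embryos, a difference of 3.37 ± 0.36 (adjusted p = 7.14e-06). Krt8, a keratin of the trophectoderm, fell in WT embryos from 2.45 and 5.17 to 0.299 and 0.363 and was at 3.30 and 2.53 early and 17.4 and 18.5 late in mutant embryos. Zscan4f and Krt8 are among the genes examined because they were called in opposite directions in the 2 courses. Among the 20 genes of the subcortical maternal complex and NLRP list 1 difference was negative and none positive, with medians of −2.35 in WT and −2.41 in mutant embryos, and for the 13 mitochondrially encoded mRNAs no difference was called. A difference that was not called does not show that the courses were alike. Whether the added amounts of Hdac1 mRNA, which differed between the groups, bear on these differences was not tested; the mutant embryos held 4007 and 2952 FPKM of Hdac1 early and 4952 and 4612 late.

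**Figure D5:**
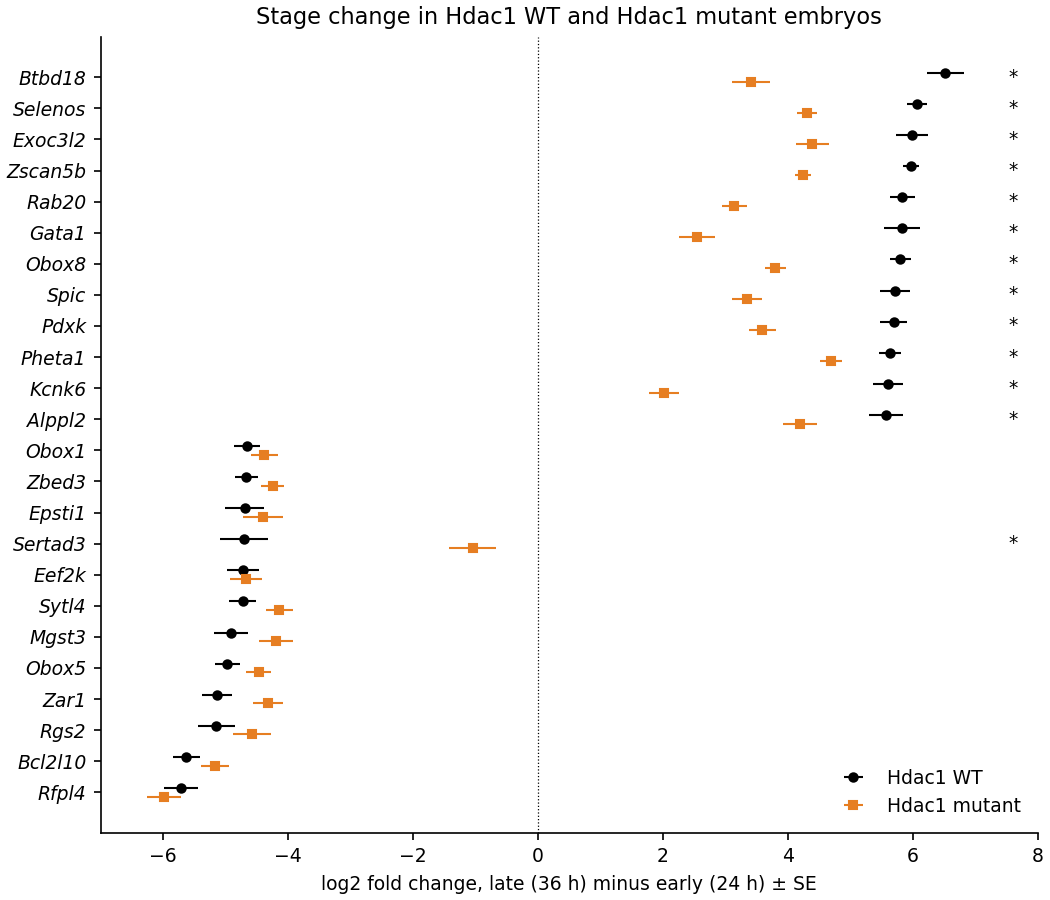
Stage change from 24 h to 36 h (log2 fold change ± SE, 2 libraries per group) of the 12 genes that rose most and the 12 that fell most in Hdac1 WT embryos (circles), with the same genes in Hdac1 mutant embryos (squares); an asterisk marks an adjusted p under 0.05 for the difference. All 12 risers, which were chosen for their rise in WT embryos, rose less in mutant embryos, while of the 12 fallers the difference was called for Sertad3.

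The end point was set beside embryos that had received water. Of the 12360 genes, 409 differed between WT late and water late embryos (3.31%), 79 higher (0.639%) and 330 lower (2.67%) in WT. Among genes described above, Btbd18 was at 315 and 280 FPKM in water, Rps25 at 195 and 160, and Zar1 at 5.22 and 8.04. Some oocyte transcripts were lower in WT embryos at 36 h, but few members of the oocyte lists were called. Lower were 1 of 20 subcortical maternal complex and NLRP genes, 2 of 23 ubiquitin and F-box genes and 1 of 11 oocyte transcription regulators. Of 41 storage and deadenylation genes 2 were lower and 1 higher, and of 11 zona and oocyte-secreted genes 0 were lower and 1 higher. None of 6 oligoadenylate synthetase-like genes was called. Bcl2l10 was at 156 and 252 in water embryos against 72.2 and 71.7 in WT (−1.45 ± 0.22, adjusted p = 0.00348). Omt2b was at 1494 and 1704 against 590 and 563, and Obox5 at 73.8 and 108 against 28.3 and 32.5. Btg4 was at 372 and 450 in water against 226 and 219 in WT, and the DMSO embryos, at 268 and 257, lay between. The call of these 4 genes held under all the alternatives run for this comparison, which leave out a WT late or water library or change the pseudocount, filter or scaling. These counts rest on single libraries: without the first WT late library 37 genes were higher and 138 lower, without the second 215 and 447, without the first water library 26 and 208, and without the second 137 and 234. Median-ratio scaling gave 218 lower genes and quantile normalization 139. WT late libraries enter this comparison and the stage comparison alike, so the 2 are not independent.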

How the data were processed

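Polyadenylated RNA of mouse 2-cell embryos was sequenced. The authors deposited FPKM values per gene, and Trimmomatic, HISAT2, featureCounts, Cufflinks, DESeq2 and the build GRCm38 are named in the submitters' processing notes; the sources used here give no versions, roles or strand setting. Only FPKM was used, so total depth is unknown, and total RNA per embryo is not measured.

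Genes at 1 FPKM or more in at least 2 of the 4 WT libraries were tested with limma 3.58.1 in R 4.3.3. The scale was log2(FPKM + 1), which understates changes of low genes. All 22 mouse libraries in 11 groups were fitted together with a trended empirical Bayes variance (11 residual degrees of freedom), without a replicate term. The p-values were adjusted by Benjamini-Hochberg over 12360 genes, with calls at 0.05. The same fit gave mutant minus WT stage changes and WT late minus water late. The code was tested on simulated data.

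Named genes were the 12 called higher and 12 called lower with the largest change, provided that groups were apart, the higher group averaged 5 FPKM or more and the symbol was no clone or model name; the 6 most abundant genes of each stage; up to 4 called members each way and the anchors of 37 gene lists; and the 6 most abundant uncalled genes with a 95% interval within 0.5 of 0. The genes and lists were chosen with earlier results of these data known. Of the genes tested, 12142 matched the GENCODE annotation. Promoters came from RefSeq and were searched for all 10 motifs planned. Alternatives changed the pseudocount, filter, scaling, groups fitted and libraries kept; those for the water comparison and for the differences from mutant embryos of single genes were chosen after seeing the data.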

Additional observations from a re-analysis of the deposited data

Results flagged for a closer look

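The stage change of 33 named genes differed between Hdac1 mutant and Hdac1 WT embryos in limma's interaction term (adjusted over 12360 genes). They were examined because they are among the genes that changed most in WT embryos or were called in opposite directions in the 2 courses. Values are mutant minus WT on the log2 scale. Whether the amount of injected mRNA bears on them was not tested.

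The 12 largest risers rose less in mutant embryos. They were chosen for their rise in WT embryos, which the difference subtracts, so a negative value was favoured by the choice; over all genes tested, 21.3% had a called negative difference. The differences were −3.57 for Kcnk6, −3.28 for Gata1, −3.11 for Btbd18, −2.70 for Rab20, −2.37 for Spic, −2.10 for Pdxk, −2.0 for Obox8, −1.75 for Selenos, −1.74 for Zscan5b, −1.60 for Exoc3l2, −1.38 for Alppl2 and −0.94 for Pheta1. With a pseudocount of 0.1 the call was lost for Exoc3l2 (−1.13), Alppl2 (−1.17) and Pheta1 (−0.66). Among the 12 largest fallers, the difference was called for Sertad3, at 3.66.

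Some copies of the 2-cell burst families fell in WT and rose in mutant embryos. They were picked for calls in opposite directions, so a large positive difference was favoured by the choice. Over all genes tested, 16% had a called positive difference. The differences were 4.09 for Zscan4b, 3.91 for Zscan4e, 3.37 for Zscan4f, 3.15 for Zscan4c and 2.30 for Zscan4d, and 3.68 and 3.42 for the deubiquitinase copies Usp17la and Usp17le. Tcstv1 differed by 2.18. Reads of these copies may be split among near-identical genes.

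Other genes called in opposite directions were the keratin Krt8 (4.08), the glycolytic kinase Hk2 (2.77), the trophectoderm factors Gata3 (2.56) and Tfap2a (2.29), the stress factor Ddit3 (2.15), the p53 target Plk2 (2.08), the deacetylases Hdac3 (1.85) and Hdac2 (1.37), E-cadherin Cdh1 (1.83), injected Hdac1 itself (1.49), the cyclin Ccna2 (−1.09) and the zona gene Zp3 (−1.61). The choice by opposite calls favoured large differences for these genes as well. In WT embryos the calls of Cdh1, Ddit3 and Tfap2a were lost under some alternatives, and Cdh1 was at −0.24 without the first late library.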

How the results depend on the processing

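Across the alternatives 3462 to 5015 genes were higher at the late stage and 3479 to 5218 lower, and with 1 WT library left out 4403 to 4549 and 4184 to 4442. Of the values of named genes under these alternatives, 4277 kept direction and side of the threshold, 54 lost the call, 8 gained it and 5 reversed. The reversals all came under quantile normalization: Anp32b 0.52, Dppa3 0.71, Hsp90ab1 0.52, Npm1 0.66 and Rnf10 0.76. The median of the 2-cell burst genes became −0.01 with median-ratio scaling and −0.06 with quantile values, and that of the blood markers −0.01 under quantile normalization. The median of all genes moved from −0.02 to −0.14 and −0.21 under these scalings, and the share of calls that were higher from 50.3% to 47.5% and 45.7%. More positive differences in mutant embryos numbered 3733 with no filter, 995 with a filter of 5 FPKM and 3683 with a filter over all mouse libraries, against 1976, while more negative ones numbered 2560, 2440 and 2634, against 2629. Against water embryos, 330 lower genes became 218 with median-ratio scaling and 139 with quantile values. With 1 WT late or water library left out, lower genes ranged from 138 to 447 and higher genes from 26 to 215; the lone remaining library is then assumed to vary like the other groups. The cause of these shifts was not tested. Same-numbered replicates did not deviate together (correlation 0.07 between early and late), so the numbers were not taken as pairs; with a replicate block, 4808 genes were higher and 4765 lower, and 4625 and 4447 when only the compared groups were fitted. The block gave 1993 more positive and 2670 more negative differences in mutant embryos, or 1520 and 2038 with only the compared groups. FPKM carries no depth, so no counting interval is given.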

Other observations

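Gene structure differed between the genes that rose and fell. The median transcript length was 2543 bases for genes at least 2-fold higher, 2805 for genes at least 2-fold lower and 2842 for all genes tested. Single-exon genes were 12.1% of the higher, 5.05% of the lower, 12.3% of the uncalled and 8.99% of all genes tested. No test was made of these shares.

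By chromosome, 29.4% of the genes tested on chromosome 6 were higher and 47.5% lower, while chromosome 17 had 46.3% higher and 33.9% lower and chromosome 11 had 45.4% and 30.7%. The X chromosome, with 40.5% and 39.2%, lay near all genes (38.8% and 38.4%). Neighbouring genes of 1 family are not independent, and no test was made.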
